A study of Mus musculus with 4 samples.

Results

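The tumor necrosis factor (TNF) superfamily ligands were followed across 4 single-colour Agilent mouse expression arrays of naive CD4+ T cells and of cells cultured toward the induced regulatory T (iTreg) fate. The 9 genes Tnf, Lta, Ltb, Tnfsf8, Tnfsf10, Tnfsf11, Tnfsf14, Cd40lg and Fasl were taken by gene name, with every probe that carries one of these names, which gave 13 probes among 56605 and 9 genes among 32498. Tnf, Tnfsf8, Tnfsf10 and Tnfsf11 each had a pair of probes, and the other 5 ligands had 1 probe. The study asked how the Nr4a nuclear receptors, transcription factors that are induced within hours of T cell receptor engagement, act on the choice between helper and regulatory fates, and it compared wild-type (WT) cells with cells that lack Nr4a1, Nr4a2 and Nr4a3 (Nr4a-TKO).

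There was 1 array for each of 4 groups, namely naive T cells of each genotype (WT or Nr4a-TKO) and iTreg cells of each genotype after 3 h. All naive cells came from spleen and lymph nodes of bone marrow chimeras, 6 weeks after irradiated Rag2-/- recipients had received T cell-depleted marrow, and were sorted by a gate that included CD4+, CD25low, CD44low and Foxp3-. The WT cells came from chimeras made with WT marrow alone. The Nr4a-TKO cells, which carry floxed Nr4a1, floxed Nr4a2 and Nr4a3-/- alleles on C57BL/6J, came from chimeras that had also received WT marrow at 1 to 1. Genotype and kind of chimera therefore cannot be told apart, and the Cre that removes the floxed alleles is not given in the sources used here. Donor mice of both sexes were 6 to 8 weeks old. For the iTreg groups, naive cells were kept for 3 h on plates coated with anti-CD3 (2 µg/ml), with anti-CD28 (0.5 µg/ml), IL-2 (10 ng/ml), antibodies that block IFN-γ and IL-4, and TGF-β1 at 0.2 or 0.5 ng/ml. Which of these doses of TGF-β1 the arrays received is not given. The step from naive to 3 h joins receptor stimulation, costimulation, cytokines and culture, which cannot be told apart here.

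TNF superfamily ligands are trimeric type II membrane proteins that act on the cell surface or, after cleavage or direct secretion, as soluble factors. They bind receptors of the TNF receptor superfamily, which recruit TRAF adaptors to switch on NF-κB and kinase signalling, or death-domain adaptors that activate caspases. Activated CD4+ T cells use them to help B cells and dendritic cells, to shape lymphoid tissue and inflammation, and to kill or restrain other cells. Tnf, Lta and Ltb, which encode TNF, lymphotoxin alpha and lymphotoxin beta, are neighbors within 11.1 kb of chromosome 17 (GRCm38.p6), inside the major histocompatibility complex.

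Across the 4 arrays, between 64.9% and 67.6% of probes were well above background by the scanner software's own flag, and no spot was saturated. Signals are given as log2 of the background-corrected, quantile-normalized intensity. With 1 array per group there is no spread between replicates, no difference was tested, and no p-value is given. Probes spotted repeatedly on the same array give the technical spread alone, an SD of 0.11 to 0.13 for a log2 value, which corresponds to 0.18 for a difference between a pair of arrays. Below a log2 signal of 5 that SD was between 0.24 and 0.29. Because Tnfsf11 and Tnfsf14 fell in that range on the naive WT array, their differences against it are the least precise of the set. CD4+ T cell markers were well above background on every array for 5 of 6 genes, and Trac was not measured. Foxp3, the lineage factor of regulatory T cells, changed by 0.11 in WT and 0.07 in cells labelled Nr4a-TKO between naive and 3 h, within the technical spread. Among the targeted genes, Nr4a1 gave log2 signals of 7.05, 8.39, 11.34 and 11.82 on the arrays labelled naive WT, naive Nr4a-TKO, 3 h WT and 3 h Nr4a-TKO, so it was not lower on either array labelled Nr4a-TKO. Nr4a2 was higher by 1.38 on the log2 scale at 3 h on the array labelled Nr4a-TKO, while the 3 probes of Nr4a3 differed by 0.19, -1.47 and -1.86. Whether these probes lie within the deleted exons was not analysed here, and a probe outside them checks nothing. The direction of every genotype difference below rests on the labels.

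The stretches of 250 bases just upstream of the annotated start are shown for the 4 ligands that rose over 2-fold in both genotypes, since members that move together may be compared by their promoters. They are RefSeq sequences of GRCm38.p6, written 5′ to 3′ on the coding strand, which is the minus strand for all 4. Tnf lies at chr17:35202008-35202257, Lta at chr17:35205352-35205601, Tnfsf11 at chr14:78308044-78308293 and Tnfsf14 at chr17:57194182-57194431. Capitals mark matches on either strand to 3 short motifs. The first was TATAAA, the letters of the core promoter box that positions the polymerase. The core bound by NFAT, a factor released by calcium signalling, was written as TGGAAA. The site of AP-1, a factor downstream of kinase signalling, was written as TGANTCA.
Tnf: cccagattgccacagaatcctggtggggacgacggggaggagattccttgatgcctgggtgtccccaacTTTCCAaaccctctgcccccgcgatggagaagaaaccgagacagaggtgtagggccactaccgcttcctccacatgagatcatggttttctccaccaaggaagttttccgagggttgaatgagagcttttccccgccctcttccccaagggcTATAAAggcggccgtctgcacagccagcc
Lta: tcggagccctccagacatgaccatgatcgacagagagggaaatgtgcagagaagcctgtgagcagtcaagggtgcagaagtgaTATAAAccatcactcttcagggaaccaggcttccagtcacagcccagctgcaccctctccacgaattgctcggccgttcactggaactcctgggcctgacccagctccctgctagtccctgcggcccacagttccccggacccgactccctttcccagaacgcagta
Tnfsf11: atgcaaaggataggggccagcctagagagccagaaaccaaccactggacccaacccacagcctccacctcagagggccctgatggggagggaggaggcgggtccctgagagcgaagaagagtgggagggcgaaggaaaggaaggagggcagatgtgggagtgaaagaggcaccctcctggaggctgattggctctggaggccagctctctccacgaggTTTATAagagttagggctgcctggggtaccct
Tnfsf14: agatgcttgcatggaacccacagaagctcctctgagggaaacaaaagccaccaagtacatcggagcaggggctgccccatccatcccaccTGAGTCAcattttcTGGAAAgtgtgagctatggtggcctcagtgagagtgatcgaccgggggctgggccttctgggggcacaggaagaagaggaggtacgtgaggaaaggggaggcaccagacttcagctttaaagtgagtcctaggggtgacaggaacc

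Tnf held the core promoter box 29 bases upstream of its start and, on the strand opposite to the one shown, an NFAT core at 181 bases. In Lta the only match was to the letters TATAAA, at 167 bases. Tnfsf11 matched TATAAA on the strand opposite to the one shown, at 32 bases. For Tnfsf14 an AP-1 site at 160 bases stood next to an NFAT core at 146 bases. Among the 8 ligands with an entry, 3 promoters matched TATAAA at any position and on either strand, 3 the NFAT core and 1 AP-1. Over all 32851 promoters the shares were 13.6%, 21.4% and 7.81%. The search ran over whole entries, which continue past the start. All shares given here can therefore include matches outside the 250 bases upstream, while every ligand match lay within those 250 bases. The Ltb promoter held the only match to the κB consensus, found in 8.46% of promoters. None of the 8 matched the Ets letters CGGAAGT (6.42% of promoters) or the Nr4a monomer letters AAAGGTCA (1.51%). Such matches describe letters near the start and are not measured binding sites. Cd40lg had no entry in the table of promoters.

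Within 3 h of stimulation, 4 of the 9 ligands rose over 2-fold in WT cells and none fell by that much, when each gene is read from its brightest probe. Those were Tnf, Lta, Tnfsf11 and Tnfsf14. Over all 23224 genes tested in WT cells, 8.43% rose over 2-fold and 8.57% fell, 17.0% in either direction. On the arrays labelled Nr4a-TKO, the same 4 ligands and Tnfsf8 rose over 2-fold, 5 of 9, against 7.82% of 23713 genes that rose and 15.8% that moved in either direction. The median change over the ligands was 0.85 in WT and 1.71 in cells labelled Nr4a-TKO on the log2 scale, where the median over all genes was -0.05 and -0.01. Ltb, Cd40lg and Fasl stayed within 2-fold in both genotypes, and the probes of Tnfsf10 disagreed.

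**Figure D1:**
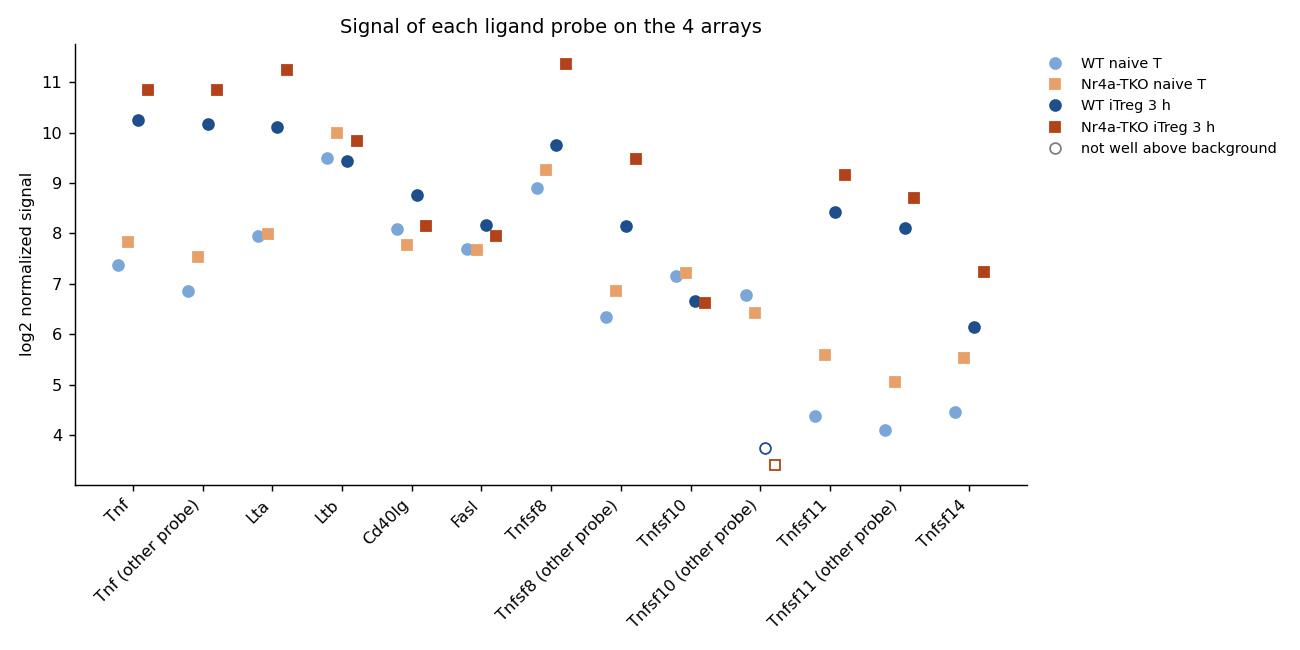
Log2 normalized signal (vertical axis) of the 13 ligand probes (horizontal axis) on the 4 arrays, 1 symbol per array, with open symbols for signals not well above background. Levels of different probes are not to be compared; within a probe, Tnf, Lta, Tnfsf8, Tnfsf11 and Tnfsf14 were highest on the 3 h array labelled Nr4a-TKO, and the other probe of Tnfsf10 was not well above background on either 3 h array.

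Tnf encodes the founding cytokine of the family, which is shed from the membrane and signals through TNFR1 and TNFR2. Its brightest probe (chr17:35336967-35337026, mm9) gave a log2 signal of 7.37 in naive WT cells, 7.82 in naive cells labelled Nr4a-TKO, 10.24 in 3 h WT cells and 10.84 in 3 h cells labelled Nr4a-TKO. Both 3 h arrays stood far above both naive arrays. The change was 2.87 in WT (7.32-fold) and 3.02 in cells labelled Nr4a-TKO, and these differed by 0.15, less than the technical spread of 0.25 for a difference of changes. The other probe, at chr17:35336795-35336854, gave 6.86, 7.53, 10.17 and 10.84 in the same order of arrays and a change of 3.31 in each genotype. Within each stage, the array labelled Nr4a-TKO was higher on both probes, by 0.45 and 0.67 among naive cells and by 0.60 and 0.67 at 3 h, beyond the technical spread and under 2-fold.

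Lta encodes lymphotoxin alpha, which is secreted as a homotrimer or held at the membrane by lymphotoxin beta. Signal was 7.94 in naive WT cells, 7.98 in naive cells labelled Nr4a-TKO, 10.11 in 3 h WT cells and 11.24 in 3 h cells labelled Nr4a-TKO (chr17:35340275-35340334). The naive arrays differed by 0.04, within the technical spread, and the 3 h arrays were apart by 1.13, or 2.19-fold. Lta thus changed by 2.17 in WT and by 3.26 in cells labelled Nr4a-TKO. Tnf, its neighbor in the locus, differed by genotype by 0.45 and 0.60 at the same stages.

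Ltb encodes the membrane anchor of the lymphotoxin heterotrimer, the ligand of the lymphotoxin beta receptor on stromal and dendritic cells. The probe at chr17:35333097-35333156 read 9.50, 10.00, 9.44 and 9.84 in naive WT cells, naive cells labelled Nr4a-TKO, 3 h WT cells and 3 h cells labelled Nr4a-TKO. The arrays labelled Nr4a-TKO were the higher at each stage, and neither 3 h array was above the naive array of its genotype. Its changes of -0.05 and -0.16 were within the technical spread, and they turned to 0.17 and 0.06 with the processed signal scaled to the 75th percentile. By genotype, Ltb differed by 0.50 among naive cells and by 0.39 at 3 h.

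Tnfsf11 encodes RANKL, which drives osteoclast formation and acts on dendritic cells through RANK. Its brightest probe (chr14:78677444-78677503) moved from 4.38 in naive WT cells to 8.42 in 3 h WT cells, and from 5.60 to 9.16 in the cells labelled Nr4a-TKO. This was the largest rise of any ligand, 4.04 in WT (16.4-fold) and 3.57 in cells labelled Nr4a-TKO (11.8-fold). That order depended on the background correction. With an offset of 50 the changes of Tnfsf11 were 2.47 and 2.66, below those of Tnf (2.55 and 2.77) and, in cells labelled Nr4a-TKO, of Lta (3.03). Without background correction they were 3.17 and 3.10, where Lta gave 3.15 in cells labelled Nr4a-TKO. The probe at chr14:78677959-78678018 gave 4.10, 5.06, 8.10 and 8.70 with folds of 16.1 and 12.5. Among naive cells, the array labelled Nr4a-TKO was higher by 1.21 on the brightest probe and by 0.96 on the other, and at 3 h by 0.74 and 0.60. The naive difference fell below 2-fold with an offset of 50 in the background correction (0.47) and without background correction (0.78).

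Tnfsf14 encodes LIGHT, a costimulatory ligand of HVEM and of the lymphotoxin beta receptor. Its probe (chr17:57329192-57329251) read 4.45 in naive WT cells, 5.52 in naive cells labelled Nr4a-TKO, 6.14 in 3 h WT cells and 7.24 in 3 h cells labelled Nr4a-TKO. The order of the arrays was the same as for Tnf, with each step larger than the technical spread. Changes were 1.69 in WT and 1.71 in cells labelled Nr4a-TKO, and differed by 0.02. The genotype difference was 1.07 among naive cells and 1.09 at 3 h. Both genotype differences fell under 2-fold with an offset of 50 (0.42 and 0.73), which also brought the WT change to 0.75.

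Tnfsf8 encodes CD30 ligand, which engages CD30 on activated lymphocytes. The brightest probe (chr4:63492410-63492469) gave 8.90 in naive WT cells, 9.25 in naive cells labelled Nr4a-TKO, 9.75 in 3 h WT cells and 11.36 in 3 h cells labelled Nr4a-TKO. The 3 h array labelled Nr4a-TKO stood apart from the other three. Its change was 0.85 in WT, under 2-fold, and 2.10 in cells labelled Nr4a-TKO (4.30-fold). The other probe, at chr4:63494489-63494548, read 6.35, 6.87, 8.14 and 9.47 and rose in both genotypes, by 1.79 and 2.60. At 3 h the array labelled Nr4a-TKO was higher by 1.61 (3.04-fold) and 1.32, the largest genotype difference among the ligands, while among naive cells the probes differed by 0.35 and 0.52. Whether Tnfsf8 rose over 2-fold in WT cells thus depended on the probe, and it passed on the brightest probe with the 75th percentile scaling (1.05).

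Cd40lg encodes CD40 ligand, the signal through which helper T cells license B cells and dendritic cells. Signal was 8.10, 7.77, 8.77 and 8.14 in naive WT cells, naive cells labelled Nr4a-TKO, 3 h WT cells and 3 h cells labelled Nr4a-TKO (chrX:54477066-54477125). The WT iTreg array was the highest and the others lay within 0.37 of each other. It changed by 0.67 in WT and 0.37 in cells labelled Nr4a-TKO. Cd40lg was the only ligand lower on both arrays labelled Nr4a-TKO by more than the technical spread, by -0.33 among naive cells and -0.62 at 3 h, neither of them 2-fold.

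Fasl, the death ligand of Fas, read 7.69, 7.67, 8.17 and 7.95 in the same order (chr1:163711056-163711115). All 4 arrays lay within 0.50. The changes were 0.48 in WT and 0.28 in cells labelled Nr4a-TKO, and the genotype differences were -0.01 among naive cells and -0.22 at 3 h.

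Tnfsf10 encodes TRAIL, which triggers death receptor signalling through DR5 in the mouse. Its probes gave different pictures. The RefSeq probe (chr3:27238508-27238567) read 6.78 in naive WT cells and 6.43 in naive cells labelled Nr4a-TKO, and on both 3 h arrays it was not well above background, at 3.76 and 3.42. With a dim signal taken at its own value or at the lowest signal well above background on that array, whichever was higher, Tnfsf10 fell at least 8.12-fold in WT and at least 8.04-fold in cells labelled Nr4a-TKO. The brighter probe, designed on a cDNA clone (chr3:27241288-27241347), gave 7.16, 7.21, 6.65 and 6.62, changes of -0.50 and -0.59, and genotype differences within the technical spread. Its 60 bases are 4 copies of a unit of 15 bases, and 12 of the 56605 probes on the array have such a repeat. A pair of adjacent units is shown because this probe, as the brightest, stands for Tnfsf10 in the counts, medians and distances given here. With the other probe of each ligand that has a pair, 5 ligands rose over 2-fold and 1, Tnfsf10, fell in each genotype.
Tnfsf10 repeat: agcgcccctgacaacagcgcccctgacaac

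**Figure D2:**
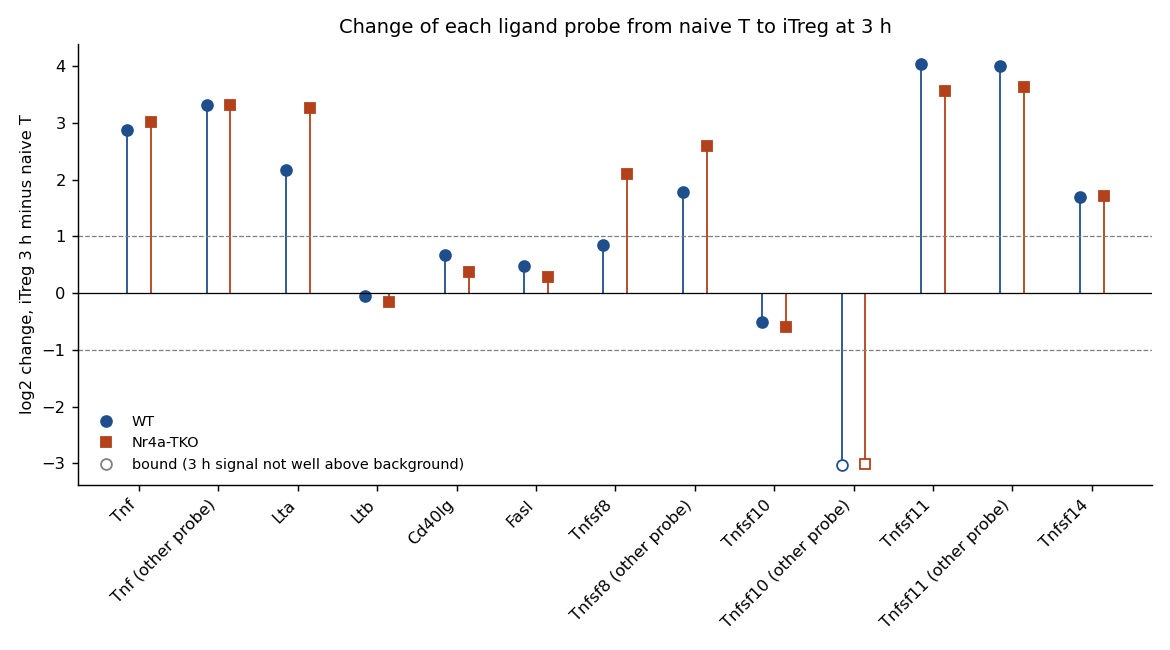
Log2 signal at 3 h minus that in naive cells (vertical axis) of each of the 13 ligand probes in WT and in cells labelled Nr4a-TKO, with dashed lines at 2-fold and open symbols for lower bounds on the size of a fall. Tnf, Lta, Tnfsf11 and Tnfsf14 lie above the upper dashed line in both genotypes, and only the RefSeq probe of Tnfsf10 lies below the lower one.

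The arrays labelled Nr4a-TKO carried more signal for most of the ligands at each stage. Among naive cells, 2 of the 9 were over 2-fold higher, Tnfsf11 and Tnfsf14, and none was over 2-fold lower, where 1.92% of 23111 genes were higher and 1.68% lower, 3.60% in either direction. At 3 h, 3 of 9 were over 2-fold higher, Lta, Tnfsf8 and Tnfsf14, and none lower, where 1.74% of 23497 genes were higher and 1.93% lower, 3.67% in either direction. The median difference of the ligands was 0.35 among naive cells and 0.60 at 3 h, beside -0.02 and 0.00 over all genes. Tnf, Ltb, Tnfsf8, Tnfsf11 and Tnfsf14, 5 of the 9, were higher by more than the technical spread on both arrays labelled Nr4a-TKO. Cd40lg was lower by more than that spread on both. How many of all genes pass this spread was not computed, so these counts have no background beside them. The comparisons between genotypes share arrays with those between stages, so they are not independent of them.

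**Figure D3:**
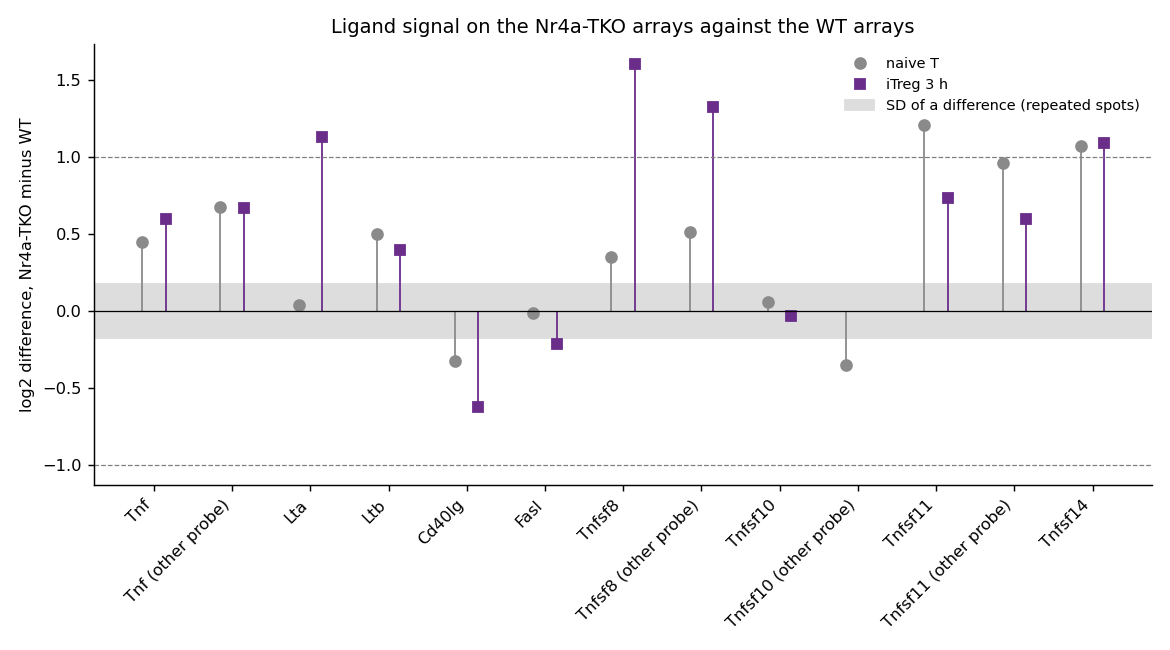
Log2 difference between the array labelled Nr4a-TKO and the WT array (vertical axis) for each of the 13 ligand probes, among naive cells and at 3 h, with the SD of a difference from repeated spots shaded and dashed lines at 2-fold. Lta and Tnfsf8 differ mainly at 3 h, Tnfsf14 at both stages, and Cd40lg lies below 0 at both; the RefSeq probe of Tnfsf10 has no value at 3 h because neither array was well above background.

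Markers of other cells and states also differed by genotype, without a common direction over the lists. The median over all genes was -0.02 among naive cells and 0.00 at 3 h. Counting any difference above 0, all 8 B cell genes were higher at 3 h on the array labelled Nr4a-TKO (median 0.82), among them H2-Ab1 by 1.38, H2-Aa by 1.34 and Cd79a by 1.14, and 6 were higher among naive cells (median 0.59). The summed linear signal of that list was 3670 and 4260 on the naive arrays of WT and of labelled Nr4a-TKO, and 2905 and 4067 on the 3 h arrays. All 8 were well above background on every array. The brightest probe of Cd22 carried most of each sum, and without that gene the sums were 1210, 1889, 941 and 1884 in the same order. Of 6 genes of memory T cells, 4 were higher among naive cells and 5 at 3 h, with Cd44 higher by 1.56 and Cxcr3 by 1.30 at 3 h and S100a4 at -2.17 among naive cells, and their summed signal was 2345, 3203, 1960 and 3455. Of 5 CD4 T cell genes, 3 were higher among naive cells and 1 at 3 h, and they summed to 17401, 17526, 12372 and 9868. All 4 naive T cell genes were lower at 3 h (median -0.24), Ccr7 by -0.63, and 3 were higher among naive cells. The CD8 T and NK cell genes had a median difference of -0.10 among naive cells and -0.54 at 3 h. That list summed to 229, 215, 163 and 132 and Ncr1 was not well above background on any array. Of the myeloid genes, 3 of 7 were higher among naive cells, where Cd14 gave -2.70, and 2 of 6 tested at 3 h. Their summed signal of 34618 to 39773 came mostly from the brightest probe of Itgam, at a log2 signal of 14.98 to 15.14. The other probe of Itgam read only 4.94, 6.25, 4.71 and 5.11 in the same order of arrays. Without Itgam the sums were 3448, 3610, 2696 and 2402. Csf1r read 11.64 on its brightest probe and 6.39 on the other on the naive WT array. Of the 4 regulatory T cell genes, Foxp3 gave -1.31 among naive cells and -1.36 at 3 h. Ikzf2, which encodes Helios, gave -1.37 and 0.16 on its brightest probe, and its other probes gave -1.22 and -1.67 at 3 h. Ctla4 gave 0.84 and 0.06, and Il2ra -0.07 and 0.05 on its brightest probe. The other probe of Il2ra gave -0.43 among naive cells, where the array labelled Nr4a-TKO was not well above background, and -0.002 at 3 h. Between stages that probe rose by 4.94 in WT and 5.37 in cells labelled Nr4a-TKO, and the brightest by 0.30 and 0.42. In RNA from a whole population, fewer cells of a type and less RNA per cell cannot be told apart, and the part of these genes' cells in the ligand values was not tested.

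To ask whether a ligand responded differently by genotype, the WT change was subtracted from the change in cells labelled Nr4a-TKO. For Tnfsf8 this difference of changes was 1.26, and 155 of the 19799 genes measured on all 4 arrays had a larger positive value. For Lta it was 1.09, with 255 genes above it. Between the 5th and 95th percentile, all genes spanned -0.62 to 0.67. The other probe of Tnfsf8 gave 0.81. Tnfsf11 leaned the other way, at -0.47 and -0.36 on its probes. Its brightest probe came to 0.19 with an offset of 50 and to -0.73 with the 75th percentile scaling. Both probes were dim on the naive WT array, where the technical spread is larger. Cd40lg gave -0.30, and between -0.37 and -0.28 under the other scalings and background corrections. Tnf, Ltb, Fasl, Tnfsf10 and Tnfsf14 had differences smaller than the technical spread of 0.25. These differences have no replicate and were not tested.

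Among the receptors of the ligands, 1 of 9 measured rose over 2-fold in WT cells by brightest probe and 1 fell, beside 8.43% and 8.57% of all genes. Tnfrsf10b, the receptor of TRAIL, rose by 1.14 in WT and 1.05 in cells labelled Nr4a-TKO. Its other probes changed by 2.06 and 0.59 in WT, and by 2.00 and 0.16 in cells labelled Nr4a-TKO. Tnfrsf1a, the receptor TNFR1 that carries a death domain, fell by 1.45 in WT and changed by -0.28 in cells labelled Nr4a-TKO. The naive cells labelled Nr4a-TKO differed from naive WT cells by -1.02. The other probe of Tnfrsf1a gave -0.29 for the WT change and -0.09 for that difference. Tnfrsf14, which encodes the LIGHT receptor HVEM, stayed within 2-fold between stages (-0.01 and 0.18) and was higher on the arrays labelled Nr4a-TKO, by 1.01 among naive cells and 1.20 at 3 h, with 0.92 and 1.51 on its other probe. Ltbr, the receptor of lymphotoxin heterotrimers, was not well above background on any array. Tnfrsf1b, which encodes TNFR2, changed by -0.44 and -0.45 on its brightest probe and by 1.62 and 2.23 on the other. The brightest Fas probe, which is annotated to chromosome 4, changed by 0.28 in WT and 0.06 in cells labelled Nr4a-TKO. The Fas probes annotated to chromosome 19 went together, with changes of 1.28 and 1.14 in WT and 0.81 and 0.75 in cells labelled Nr4a-TKO. The counts and medians of the receptors use the chromosome 4 probe, by which Fas stayed within 2-fold. The median change of the receptors was -0.01 in WT and -0.05 in cells labelled Nr4a-TKO.

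Among 9 other ligands of the superfamily, 5 could be compared between stages in WT cells and none moved over 2-fold, beside 17.0% of all genes. Tnfsf9, which encodes the costimulator 4-1BB ligand, read 4.25, 4.40, 4.50 and 5.55, and was over 2-fold higher only on the 3 h array labelled Nr4a-TKO, by 1.15 over its naive array and by 1.05 over WT. Tnfsf4 (OX40 ligand), Cd70 and Tnfsf15 were not well above background on any array, and Tnfsf13 was not measured. Of 13 signalling adaptors, 3 rose over 2-fold in WT cells and 2 fell, against 8.43% and 8.57% of all genes. Those that rose were Traf1 (1.26), the ubiquitin ligase Birc3 (1.13) and Tnfaip3 (1.35), which encodes the NF-κB inhibitor A20. In cells labelled Nr4a-TKO they changed by 1.51, 1.12 and 1.58. Traf6, which links receptors such as RANK and CD40 to NF-κB, changed on its brightest probe by 0.49 in WT and 1.30 in cells labelled Nr4a-TKO. Its other probes changed by 0.75 to 1.02 in WT and by 0.24 to 1.06 in cells labelled Nr4a-TKO. Traf5 fell by 2.14 and 1.48 in the respective genotypes, and Casp8, the initiator caspase of death receptors, fell by 1.30 in WT and changed by -0.75 in cells labelled Nr4a-TKO. By brightest probe, no adaptor differed over 2-fold by genotype at either stage, where 3.60% of all genes did among naive cells and 3.67% at 3 h. A dimmer probe of Traf6 was higher by 1.21 on the naive array labelled Nr4a-TKO.

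Neither Adam17, the protease that sheds TNF, nor any other of the 5 sheddases and regulators changed over 2-fold in the comparisons where it could be measured. Between stages, 17.0% of all genes did so in WT and 15.8% in cells labelled Nr4a-TKO. Between genotypes the shares were 3.60% among naive cells and 3.67% at 3 h. Of 8 RNA-binding regulators of cytokine transcripts, 2 rose over 2-fold in WT cells (8.43% of all genes did), Zc3h12a (the endonuclease Regnase-1, 1.48) and Zfp36l1 (1.08), and these changed by 0.70 and 0.39 in cells labelled Nr4a-TKO. There, Zfp36 (tristetraprolin, which destabilizes the TNF transcript) fell by 1.12 and Zfp36l2 by 1.04, against -0.81 and -0.77 in WT. The other probe of Zc3h12a changed by -0.05 in WT.

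**Figure D4:**
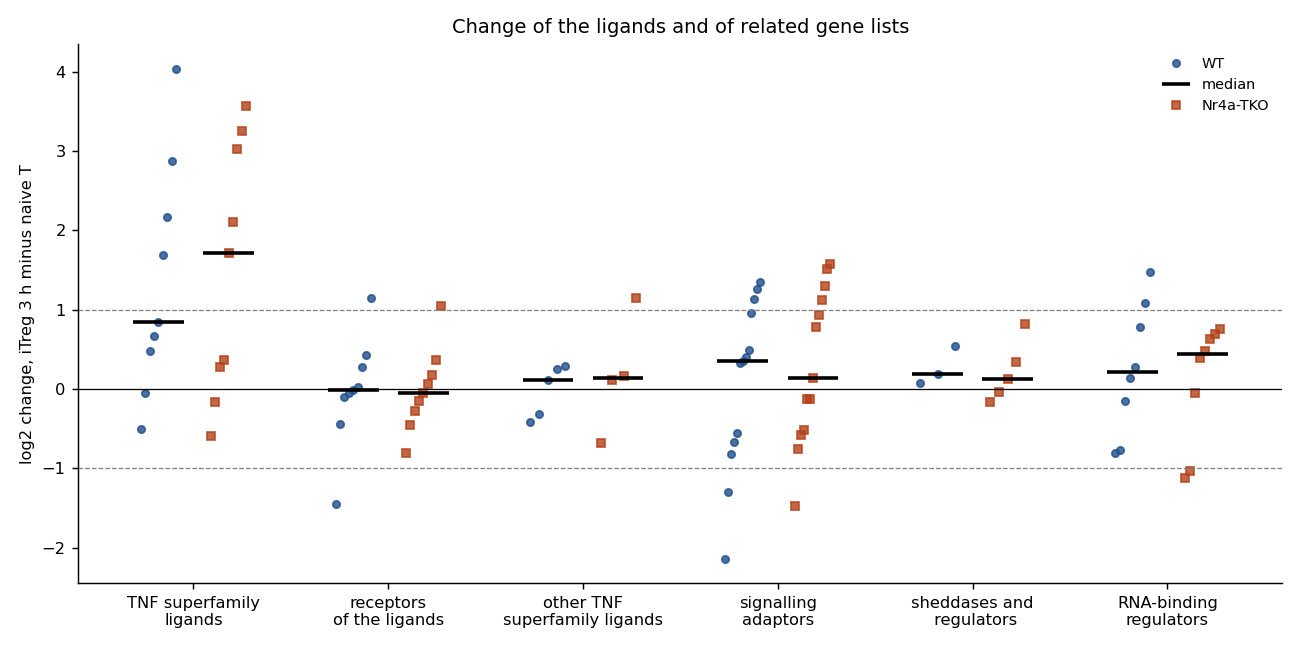
Log2 signal at 3 h minus that in naive cells (vertical axis) of the 9 ligands and of 5 lists of related genes, 1 point per gene read from its brightest probe, in WT and in cells labelled Nr4a-TKO, with bars at the medians and dashed lines at 2-fold. The ligands have medians of 0.85 and 1.71, and the medians of the receptors lie at -0.01 and -0.05.

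Among the ligands, Cd40lg and Fasl had the most similar profiles over the 4 arrays, with a root mean square distance of 0.19 after each profile was centred on its mean, followed by Tnf and Lta at 0.27. Ltb lay 1.53 from Tnf and 1.44 from Lta. For the 5 ligands whose 4 values spanned over 2-fold on their brightest probe, the most similar genes of the array were Atf3 for Tnf (0.15), Mapkapk3 for Lta (0.12), Cd44 for Tnfsf8 (0.05), Nr4a1 for Tnfsf11 (0.11) and Ptprs for Tnfsf14 (0.09). Atf3 encodes an immediate early stress factor and also stood next for Lta, at 0.14. Cd44, a hyaluronan receptor and marker of antigen experience, read 7.23, 7.45, 8.03 and 9.59. Nr4a1, a target of the deletion, shared with Tnfsf11 both the rise at 3 h and the higher signal on the naive array labelled Nr4a-TKO. Within a distance of 0.3 there were 31 genes for Tnf, 13 for Lta, 15 for Tnfsf8, 3 for Tnfsf11 and 15 for Tnfsf14. These distances rest on 4 values each from the same arrays and describe likeness only.

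**Figure D5:**
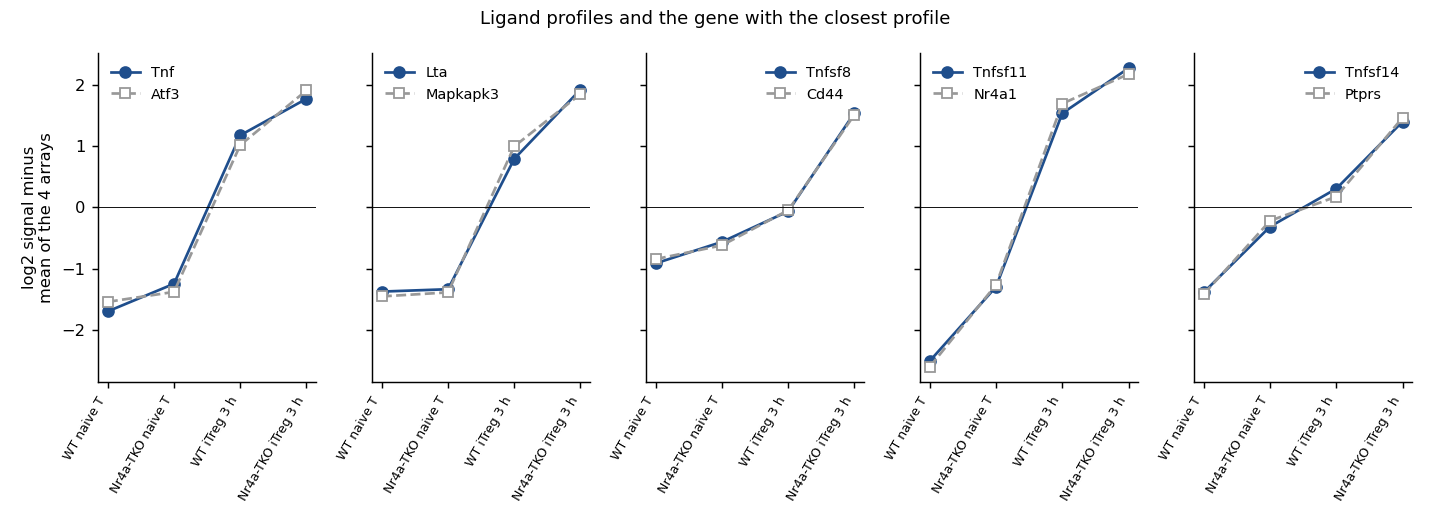
Log2 signal on each of the 4 arrays minus the mean over them (vertical axis) for 5 ligands (filled circles) and the gene with the most similar profile (open squares), where lines only join the points. The root mean square distance is 0.15 for Tnf and Atf3, 0.12 for Lta and Mapkapk3, 0.05 for Tnfsf8 and Cd44, 0.11 for Tnfsf11 and Nr4a1, and 0.09 for Tnfsf14 and Ptprs.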

How the data were processed

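Transcripts were measured in 4 samples on 4 single-colour arrays of 1 slide, all from 1 scan. For each array the authors deposited scanner output of Agilent Feature Extraction 11.5.1.1, with the mean intensity of every spot, its local background, a processed intensity and a flag for spots well above background, with mm9 coordinates. They also deposited log2 values. These values match the processed intensity on the log2 scale after each array's 75th percentile was subtracted, to within an SD of 0.003, whereas their methods name RMA. The median mean intensity was between 44.8 and 45.4 and the median background between 20 and 21. The number of arrays limits the precision.

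Intensities were corrected with normexp (offset 0) and quantile-normalized in limma 3.58.1 (R 4.3.3, data.table version 1.17.8), following RMA, then taken to log2 and averaged over spots. Control spots and between 115 and 160 flagged spots per array were left out. Tables were made with Python 3.11.15, pandas 2.3.3, numpy 2.4.6 and matplotlib 3.10.9. A gene took its brightest probe over the 4 arrays. A dim probe took the higher of its own signal and the floor of its array, the lowest signal that was well above background (3.45 and 3.37 for naive cells of WT and Nr4a-TKO, 3.43 and 3.07 for iTreg cells), which gives a lower bound on a fold. A difference needed 1 of its arrays well above background, and the threshold was 2-fold. Of the probes, 4831 had no gene name. In data simulated for the naive comparison over 32959 probes, 200 probes changed 3-fold were recovered at 100% with 0 unchanged probes past 2-fold. The simulated noise was the technical spread alone, on probes well above background on all 4 arrays. A 2-fold cutoff lies far outside that spread, so this outcome was fixed by the setting. It says nothing of variation between animals, cultures or arrays, or of the larger spread of dim probes.

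Every ligand with every probe is named, and genes of the related lists where their brightest probe passed 2-fold in some comparison. Other genes and probes of those lists, such as Tnfrsf1b, Fas and Adam17, were named after their values were seen. Members and lists were chosen with earlier results of these data known. Alternatives were other scalings, background corrections, probe rules, filters and thresholds. Samples were grouped by their labels, and nothing says whether the RNA of a group came from 1 animal or a pool. Exon and UTR positions of the probes were not analysed here. Values of some marker genes are not reported here.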

Additional observations from a re-analysis of the deposited data

How the results depend on the processing

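With 1 array per group nothing could be tested, and the depth of these results is set by signal over background. No ligand past 2-fold changed direction under any alternative run. Of the summary values recomputed under alternatives, 65 moved by less than the technical spread (counts by at most 1.5 times) and 13 moved by more. The median WT change of 0.85 became 1.05 with the 75th percentile scaling, 1.07 in the deposited table, 1.32 with the mean of all probes and 1.69 with the other probe of each ligand. The median change in cells labelled Nr4a-TKO, 1.71, became 1.06 with an offset of 50 and 1.39 without background correction. The 2 ligands over 2-fold apart among naive T became 0 with an offset of 50, 0 without background correction, 0 at 3-fold and 1 with the other probe. The 3 apart at 3 h became 6 at 1.5-fold, 1 at 3-fold, and 2 with an offset of 50 or without background correction. The 4 ligands over 2-fold apart between stages in WT cells became 3 with an offset of 50. They became 5 with the 75th percentile scaling or in the deposited table. With the mean of all probes or the other probe they became 6, of which 1 was lower. The median difference of changes, -0.09, became 0.19 with an offset of 50. An offset or an omitted background correction compresses differences of dim probes by construction, and Tnfsf11 and Tnfsf14 were dim on the naive WT array. Other causes were not tested. Tnfsf10 passed 2-fold downward with the mean of its probes. Of the values of single ligands, 185 moved by less than the technical spread and 58 by more. Leaving out a replicate was not possible with 1 array per group. No paired analysis was possible because each group has 1 array and the replicate numbers pair no samples.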
